A study of Mus musculus with 9 samples.

Results

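The clustered histone genes, which lie in gene clusters on a few chromosomes and encode the histone proteins H1, H2A, H2B, H3 and H4, were described in poly-A RNA of 3 cell populations of the mouse olfactory epithelium. Members were all gene symbols of the form Hist, 1 digit and h (for example Hist1h1c), which gave 68 of 21909 symbols. By cluster, 54 were Hist1 genes on chromosome 13, 10 were Hist2 genes on chromosome 3, 3 were Hist3 genes on chromosome 11 and 1 was the Hist4 gene on chromosome 6. By class, 6 encoded the linker histone H1, 18 H2A, 19 H2B, 12 H3 and 13 H4, genes named as pseudogenes included. All mice were aged 4 weeks, and the tissue was the main olfactory epithelium. Horizontal basal cells (HBC, a reserve stem cell of the epithelium) were sorted by a PE-labelled antibody to CD54. Globose basal cells (GBC, the precursor of the neurons) were sorted as positive for a Neurog1-EGFP reporter, and mature olfactory sensory neurons (mOSN) as positive for OMP-ires-EGFP, a reporter in the gene of the olfactory marker protein. A reporter protein can outlast the gene that drives it, so a sort can hold cells that have moved past that stage. Each population had 1 library, so no difference has a replicate check and no test was made. The kit was ScriptSeq for HBC but the mRNA kit of Illumina for both other populations, so kit and population cannot be told apart in any comparison with HBC.

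Most clustered histone genes are transcribed during S phase, when new chromatin needs histones, and their messages end in a conserved stem-loop in place of a poly(A) tail. The stem-loop binding protein SLBP and the U7 snRNP make that end, and the messages are degraded when DNA synthesis stops. Poly-A selection therefore captures such messages poorly, and a low level here does not measure the total histone message of the cells. Some clustered genes also give polyadenylated messages, particularly in cells that have stopped dividing. Histones H2A, H2B, H3 and H4 form the core of the nucleosome, and H1 binds the linker DNA between nucleosomes. Hist2h2be encodes H2BE, an H2B variant known from olfactory sensory neurons of the mouse.

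Values are FPKM (fragments scaled to transcript length and sequencing depth) with the interval that Cufflinks gave. FPKM is scaled to length, but the fragments behind 1 FPKM of a gene differed between libraries. Whether gene length bears on the order of levels was not tested. Levels of members also depend on how much of each message poly-A selection captured, and members differ by a few bases and share reads. The fragments that the intervals implied came to 18123300 (HBC), 18087000 (GBC) and 16515800 (mOSN). Markers of other cells stood in the HBC library, where all 10 macrophage markers lay between 43.0 and 1228 FPKM. The 10 macrophage markers summed to 3775 FPKM in HBC, then 6.02 in GBC and 4.58 in mOSN, and the 6 horizontal basal cell markers to 1315, 1.75 and 3.08 FPKM. The 5 sustentacular markers summed to 1778 FPKM in HBC, then 36.8 in GBC and 139 in mOSN, and the 7 lymphocyte markers to 83.1, 1.38 and 0.224 FPKM. Immediate early genes, which respond to cell dissociation, summed to 3692 FPKM in HBC, then 371 in GBC and 470 in mOSN (8 genes). Whether these cells or the dissociation response bear on the histone values of HBC was not tested. The 6 mature neuron markers summed to 130 FPKM in HBC, then 877 in GBC and 6006 in mOSN, and the 5 precursor markers to 3.11, 683 and 35.0 FPKM. The 5 erythroid markers that matched the tables summed to 5.93, 34.8 and 5.38 FPKM in the same order, and the 5 endothelial markers to 11.2, 1.40 and 1.57 FPKM. In bulk libraries, fewer cells of a type and less RNA per cell cannot be told apart.

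Summed over the 68 members, the clustered histone genes had 62.6 FPKM in HBC, then 831 in GBC and 845 in mOSN. The level of the median member was 0.0473 FPKM in HBC, then 4.20 in GBC and 0.860 in mOSN. A level of 1 FPKM or more was seen for 8 members in HBC, for 56 in GBC and for 32 in mOSN, and 5 FPKM or more for 3, 28 and 11. The sum and the median order GBC and mOSN differently because 1 gene, Hist2h2be, held 71.5% of the mOSN sum, against 29.1% in GBC and 14.6% in HBC. Without Hist2h2be the sums were 53.4 FPKM in HBC, then 589 in GBC and 241 in mOSN. The order of the full sums in mOSN and GBC also turned with scaling: the sums were 722 FPKM in mOSN and 757 in GBC with median-of-ratios scaling, and 3541 and 4522 in libraries rescaled to 1 common sum. As deposited, of the 64 members listed above 0 in any library, 58 were highest in GBC, 6 in mOSN and none in HBC. The members highest in GBC were thus 90.6% of the 64, beside 31.8% of the 20053 symbols listed above 0.

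**Figure D1:**
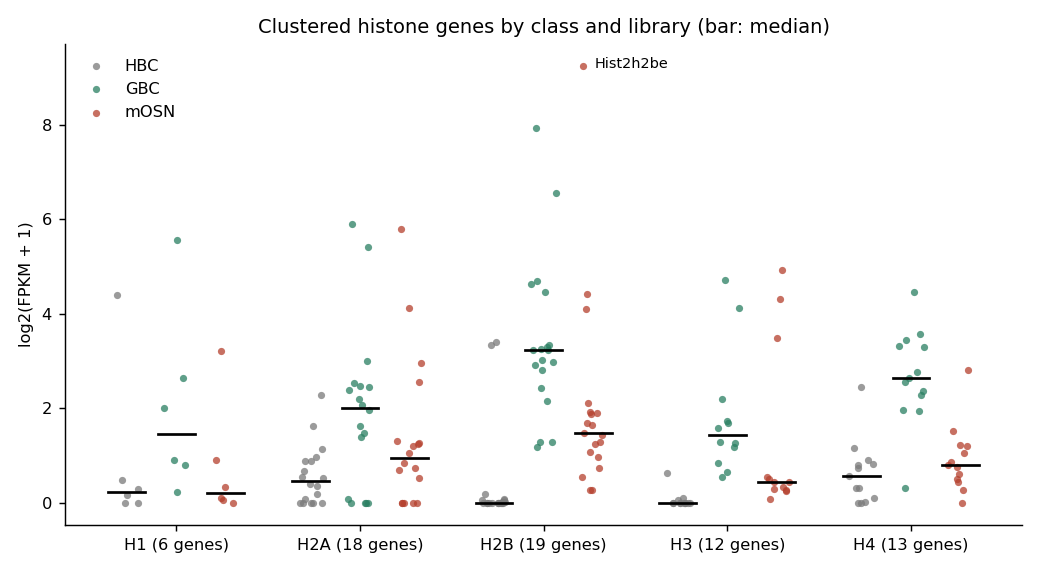
FPKM of each of the 68 clustered histone genes in HBC, GBC and mOSN (1 library each), drawn by histone class on a log2(FPKM + 1) axis, with 1 point per gene and a bar at the median. Most genes sit highest in GBC, and Hist2h2be stands above all others in mOSN at 604 FPKM.

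How many fragments stood behind a member set how much its level can be read. In HBC, 38 of the 68 members had under 1 implied fragment, and 11 had at least 10. In GBC, 61 members had at least 10 implied fragments, and in mOSN 37. Among the 68 levels of a library, those listed at 0 numbered 23 (HBC), 4 (GBC) and 6 (mOSN). A listed 0 need not be absence, since 1 of 73 ribosomal protein symbols, genes that every cell uses, was also listed at 0 in HBC and 1 in mOSN. The same 4 members were listed at 0 in all 3 libraries: Hist1h2ao, Hist1h2ap, Hist2h2aa1 and Hist2h2aa2. These are the rows of overlapping copies, with 393 bases shared in the tables between Hist1h2ao and Hist1h2ap and again between Hist2h2aa1 and Hist2h2aa2, so their level cannot be read.

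Histone genes are near-identical copies of each other, and the authors' counting could split reads between them. Hist1h2bq and Hist1h2br carried identical values in all 3 libraries, with 0.000158 FPKM in HBC, then 1.46 in GBC and 0.212 in mOSN. Implied fragments came out within 0.03 of a whole number in 7 of 28 member rows of at most 100 fragments in GBC, 9 of 52 in mOSN and 13 of 41 in HBC. Over all rows of that size the share was 69.1% in GBC, 69.0% in mOSN and 77.6% in HBC. Levels of single Hist1 genes are therefore uncertain, and class sums are given beside them.

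The classes differed in how their levels were spread over the libraries. H2B genes summed to 19.1 FPKM in HBC, then 487 in GBC and 667 in mOSN, and without Hist2h2be to 9.96, 245 and 62.5 FPKM. H2A genes summed to 12.1 FPKM in HBC, then 140.6 in GBC and 92.0 in mOSN. H3 genes summed to 0.671, 58.0 and 61.1 FPKM in the same order, of which Hist2 genes held most. H4 genes summed to 9.84 FPKM in HBC, then 89.5 in GBC and 15.5 in mOSN, and H1 genes to 20.8, 56.2 and 9.56 FPKM. H1 therefore made up 33.3% of the histone sum in HBC, then 6.76% in GBC and 1.13% in mOSN, and H2B 30.5%, 58.6% and 78.9%. Without Hist2h2be, the share of H2B in the sum of the other members was 18.6% in HBC, then 41.6% in GBC and 26.0% in mOSN, so the higher share in mOSN than in GBC rested on that gene. A nucleosome holds equal numbers of the core histones, and these shares are of poly-A message, not of protein.

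**Figure D2:**
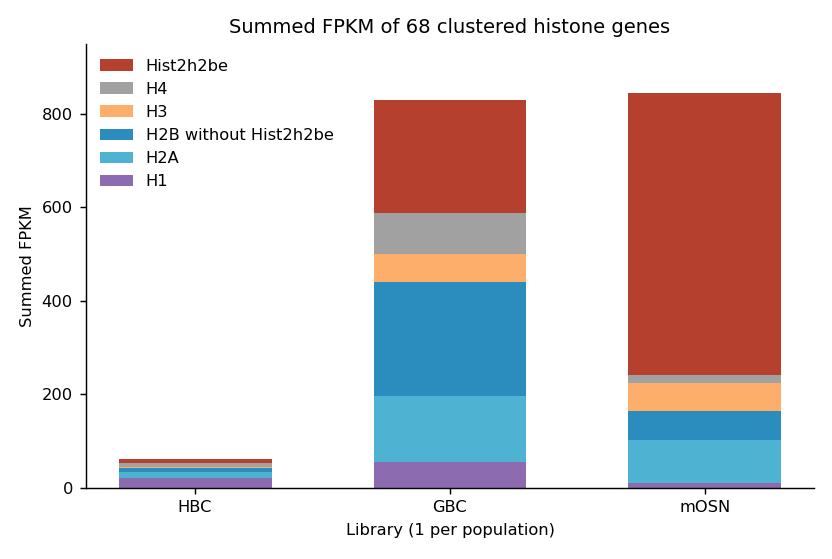
Summed FPKM of the clustered histone genes in HBC, GBC and mOSN, 1 library each, stacked by histone class with Hist2h2be drawn apart from the other H2B genes. Hist2h2be makes up most of the mOSN sum (604 of 845 FPKM), and without it GBC has the highest sum (589 FPKM, against 241 in mOSN and 53.4 in HBC).

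Ratios between libraries are log2 ratios of FPKM + 1. The comparison of GBC with HBC set the neuronal precursor against the reserve stem cell. At least 2-fold higher in GBC were 54 of the 68 members (79.4%), where 21.7% of all symbols were. None was at least 2-fold lower, where 14.7% of all symbols were. With the added 1 FPKM, only a gene of at least 1 FPKM in HBC can be 2-fold lower. That level was reached by 8 of the 68 members and 11388 of the 21909 symbols, so the other members could not be called lower. At least 4-fold higher, with at least 5 FPKM in GBC, were 23 members (33.8%), beside 6.44% of all symbols. None was lower by that rule, beside 6.86%, and only 3 members had the 5 FPKM in HBC that it needs. By class, 19 of 19 H2B, 12 of 13 H4, 9 of 12 H3, 11 of 18 H2A and 3 of 6 H1 genes were at least 2-fold higher. The median log2 ratio of the members was 1.70, against 0.07 over all symbols and 0.52 over the 13142 symbols with a mean of at least 1 FPKM. For members at or near 0 in HBC, the added 1 FPKM sets the size of the ratio. The fragments behind 1 FPKM differed between these libraries. Their ratio of GBC over HBC was 0.528 to 1.79 over the only 4 members with at least 50 fragments in both. Over all such genes its median was 0.880.

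The comparison of mOSN with GBC, made with the same kit, set the mature neuron against its precursor. At least 2-fold lower in mOSN were 40 of the 68 members (58.8%), where 5.92% of all symbols were. With the added 1 FPKM, only a gene of at least 1 FPKM in GBC can be called lower. That level was reached by 56 of the 68 members but by 11395 of the 21909 symbols, so the 2 shares do not rest on like sets. At least 2-fold higher were 2 (2.94%), Hist2h2be and Hist2h3c2-ps, beside 12.8% of all symbols. At least 4-fold lower, with at least 5 FPKM in GBC, were 8 members (11.8%), beside 1.25% of all symbols. They were Hist1h1c, Hist1h2bf, Hist1h4i, Hist1h4j, Hist1h4n, Hist2h2bb, Hist3h2ba and Hist3h2bb-ps. None was at least 4-fold higher, beside 2.82%. By class, 16 of 19 H2B, 12 of 13 H4, 6 of 18 H2A, 3 of 12 H3 and 3 of 6 H1 genes passed the 2-fold mark for lower levels. The median log2 ratio was -1.22, against 0.00 over all symbols. The fragments behind 1 FPKM also differed between these libraries, with a median ratio of mOSN over GBC of 0.533 over 13 members and 0.712 over all genes with at least 50 fragments.

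The comparison of mOSN with HBC set the ends of the lineage side by side, across the 2 kits. At least 2-fold higher in mOSN were 21 members (30.9%), beside 26.0% of all symbols, so the share of members was near that of all symbols. At least 2-fold lower were 2 (2.94%), Hist1h1c and Hist1h4n, beside 14.8%. Only the 8 members of at least 1 FPKM in HBC could be 2-fold lower, and only 3 had the 5 FPKM of the 4-fold rule. At least 4-fold higher were 8 members (11.8%), also near the 10.7% of all symbols, and none was at least 4-fold lower, beside 7.07%. The 8 were Hist3h2ba and 7 Hist2 genes: Hist2h2ab, Hist2h2ac, Hist2h2be, Hist2h3b, Hist2h3c1, Hist2h3c2-ps and Hist2h4. The median log2 ratio was 0.49, against 0.00 over all symbols and 0.67 over those with a mean of at least 1 FPKM. The ratio of mOSN over HBC in fragments behind 1 FPKM was 0.398 to 0.958 over 4 members with at least 50 fragments in both.

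**Figure D3:**
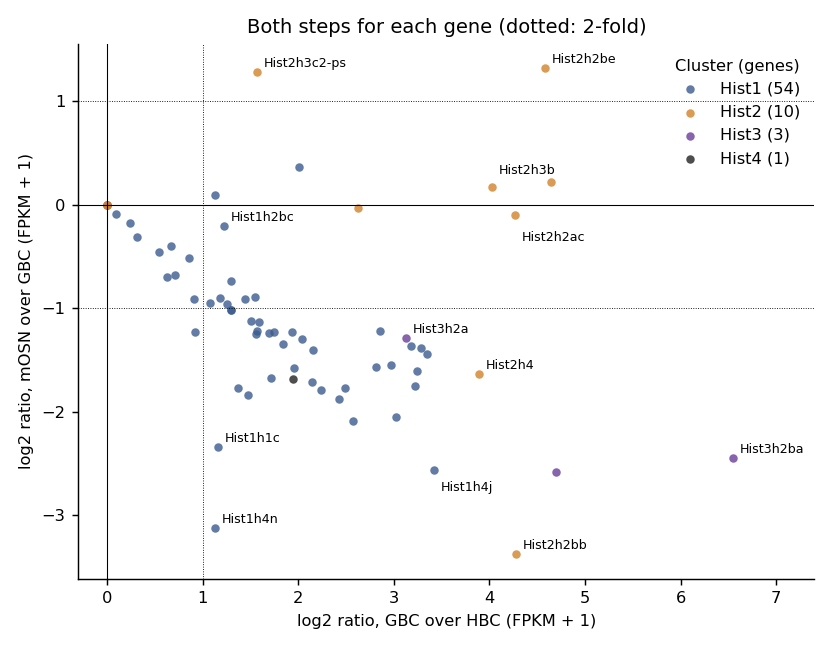
Log2 ratio of each member for GBC over HBC (x axis) and for mOSN over GBC (y axis), from FPKM + 1, with 1 point per gene. Both axes share the GBC library. Most members lie to the right (54 of 68 at least 2-fold higher in GBC than in HBC) and below 0 (40 of 68 at least 2-fold lower in mOSN than in GBC), with Hist2h2be at 4.58 and 1.32.

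The GBC library enters both steps, so a value of that library moves both ratios. At least 2-fold above each of the other libraries in GBC were 39 members (57.4%), beside 744 of all symbols (3.40%). The members below 1 FPKM in every library numbered 12, and with a pseudocount of 1 FPKM none of these can reach a 2-fold ratio.

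Hist2h2be (chromosome 3, 96025044 to 96027661, mm9) was the highest histone member in GBC and in mOSN. It had 9.15 FPKM in HBC (interval 8.58 to 9.72), then 242 in GBC (238 to 246), and 604 in mOSN (597 to 611). These values rested on 1027, 14328 and 30705 implied fragments, so counting error is small. The level in mOSN was above that in GBC, and both were above HBC, with no overlap of intervals. Among the 21909 symbols it ranked 20th in mOSN, 53rd in GBC and 3840th in HBC. On the log2 scale, mOSN was 1.32 above GBC and 5.90 above HBC, and GBC was 4.58 above HBC. The difference between mOSN and GBC was 0.94 with libraries rescaled to a common sum, which is under 2-fold. It was 1.23 with median-of-ratios scaling and 1.58 with 1 conversion factor per gene. That factor is the number of fragments per FPKM of a gene, the same in all libraries apart from 1 scaling factor per library.

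The Hist2 cluster as a whole summed to 12.8 FPKM in HBC, then 395 in GBC and 731 in mOSN. Without Hist2h2be its sum was 3.69, 153 and 127 FPKM. As deposited, several neighbours of Hist2h2be had in mOSN a level near that in GBC. Hist2h2ac, an H2A gene 276 bases from Hist2h2be, had 54.8 FPKM in mOSN (50.7 to 58.9) and 59.0 in GBC (56.2 to 61.8), and 2.11 in HBC. The intervals of mOSN and GBC overlap, and the log2 ratio of mOSN over GBC was -0.10. Hist2h2ab, the next H2A gene at 146 bases from Hist2h2ac, had 6.78 FPKM in mOSN, against 6.98 in GBC, with 0.292 in HBC (log2 -0.04 for mOSN over GBC). With 1 conversion factor per gene these log2 ratios of mOSN over GBC were lower, at -0.79 for Hist2h2ac and -0.70 for Hist2h2ab.

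Of the 3 H3 genes of the same cluster, 2 had a similar level in mOSN and GBC as deposited, but which library was higher turned with scaling. Hist2h3c1 had 29.5 FPKM in mOSN, against 25.2 in GBC, with 0.0471 in HBC. Hist2h3b (96072617 to 96073027) had 18.8 FPKM in mOSN (16.6 to 20.9), against 16.5 in GBC (15.2 to 17.9), with 0.0720 in HBC. The log2 ratio of mOSN over GBC was 0.22 for Hist2h3c1 and 0.17 for Hist2h3b. It was -0.50 and -0.58 with 1 conversion factor per gene, and -0.15 and -0.19 with libraries rescaled to 1 common sum. Hist2h3c2-ps, named as a pseudogene here but matched to the RefSeq symbol H3c15, had 10.2 FPKM in mOSN, against 3.61 in GBC, with 0.552 in HBC. Its row shares 546 bases with a row of Hist2h3c1 that is listed at 0 in every library, so its reads can belong to either, and its log2 ratio of mOSN over GBC was 1.28, or 0.67 with 1 conversion factor per gene.

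Of the remaining Hist2 genes, 2 were lower in mOSN than in GBC and 2 were those listed at 0 throughout. Hist2h2bb, an H2B gene (96073623 to 96074115) that lies 595 bases from Hist2h3b, had 1.12 FPKM in mOSN (0.559 to 1.67), against 21.0 in GBC (19.0 to 23.0), with 0.136 in HBC. Its log2 ratio of mOSN over GBC was -3.38, the lowest of the 68 members, on 16.1 implied fragments in mOSN and 444 in GBC. Hist2h4, an H4 gene, had 6.06 FPKM in mOSN, against 20.9 in GBC, with 0.476 in HBC (log2 -1.63 for mOSN over GBC). The cluster thus held 2 members at least 2-fold higher and 2 at least 2-fold lower in mOSN than in GBC. Every member of it listed above 0 was at least 2-fold higher in GBC than in HBC.

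The start regions of 3 genes are printed, because Hist2h3b and Hist2h2bb are close neighbours with unlike ratios and Hist1h2bk was the highest H2B gene of the Hist1 cluster in GBC apart from Hist1h2bc. Each window runs from 250 bases before to 50 after the annotated start, from RefSeq in build GRCm38.p6, with the strand of the gene. The windows are chr3:96268404-96268703 (+) for Hist2h3b, chr3:96269450-96269749 (+) for Hist2h2bb and chr13:22035571-22035870 (+) for Hist1h2bk. Capitals mark matches, on either strand, to the octamer ATTTGCAT, to the pentamer known as the CCAAT box and to the hexamer TATAAA, and no matches overlapped each other here.
Hist2h3b: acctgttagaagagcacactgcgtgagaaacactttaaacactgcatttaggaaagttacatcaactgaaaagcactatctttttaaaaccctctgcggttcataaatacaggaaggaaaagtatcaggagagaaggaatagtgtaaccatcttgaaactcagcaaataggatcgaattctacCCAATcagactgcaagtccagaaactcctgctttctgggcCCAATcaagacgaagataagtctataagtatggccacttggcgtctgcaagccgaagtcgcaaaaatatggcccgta
Hist2h2bb: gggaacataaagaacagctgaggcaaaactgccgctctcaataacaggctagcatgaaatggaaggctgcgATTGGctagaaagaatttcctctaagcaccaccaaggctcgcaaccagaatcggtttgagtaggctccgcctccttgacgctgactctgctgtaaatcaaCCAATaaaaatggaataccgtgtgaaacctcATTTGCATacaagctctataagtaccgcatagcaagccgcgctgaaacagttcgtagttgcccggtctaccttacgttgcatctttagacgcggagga
Hist1h2bk: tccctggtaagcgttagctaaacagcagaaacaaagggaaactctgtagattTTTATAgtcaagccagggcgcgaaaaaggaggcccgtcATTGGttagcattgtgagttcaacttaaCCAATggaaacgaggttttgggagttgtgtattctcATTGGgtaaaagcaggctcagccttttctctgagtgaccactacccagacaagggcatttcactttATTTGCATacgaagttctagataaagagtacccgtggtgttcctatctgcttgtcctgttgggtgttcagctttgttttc

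The octamer, a sequence bound by the POU factor Oct1 (Pou2f1) and known from H2B promoters, stood at position -48 in Hist2h2bb and at -30 in Hist1h2bk, counted to its first base with the start as 1. Hist2h3b held no octamer in its window and had CCAAT at -67 and -27. In all, 61 of the 68 members matched 62 windows. Hist2h2be, Hist1h2bc, Hist2h4 and Hist3h2bb-ps were among the members without a window, so the shares below do not cover them. The octamer stood in 14 of these 62 windows (22.6%), beside 1.74% of all 32851 windows of that length. The windows with the octamer were 7 of 17 H2A and 7 of 17 H2B windows, with none in H1, H3 or H4. Windows of neighbouring H2A and H2B genes can overlap, so a match can count in both, and these windows need not be separate occurrences. CCAAT stood in 53 of 62 windows (85.5%), beside 37.4% of all windows, and in 3 of 12 for H4. TATAAA stood in 35 of 62 windows (56.5%), beside 13.6% of all windows. A match is a description of the letters, not of binding.

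The Hist3 genes had high levels in GBC for so small a cluster, with sums of 3.84 FPKM in HBC, then 159 in GBC and 35.8 in mOSN. Hist3h2ba, an H2B gene (chromosome 11, 58762413 to 58763032), had 16.1 FPKM in mOSN, against 92.8 in GBC, and was listed at 0 in HBC. It was the second highest member in GBC, on 3538 implied fragments. Hist3h2bb-ps, named as a pseudogene, had 3.31 FPKM in mOSN, against 24.9 in GBC, and was also listed at 0 in HBC. Hist3h2a, an H2A gene, had 16.3 FPKM in mOSN, against 41.3 in GBC, with 3.84 in HBC. All 3 were at least 2-fold lower in mOSN than in GBC, with log2 ratios of -2.45, -2.59 and -1.29. Hist4h4, the H4 gene on chromosome 6, had 0.203 FPKM in mOSN, against 2.86 in GBC, and was listed at 0 in HBC.

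Linker histone message came mainly from Hist1h1c (chromosome 13, 23830676 to 23832236), which encodes the subtype H1.2. It had 20.1 FPKM in HBC (18.7 to 21.4), then 46.1 in GBC (44.6 to 47.6) and 8.30 in mOSN (7.43 to 9.16), with no overlap of intervals. It was the highest member in HBC, where it held 32.1% of the histone sum, against 5.55% in GBC and 0.982% in mOSN. The log2 ratio was 1.16 for GBC over HBC, -2.34 for mOSN over GBC and -1.18 for mOSN over HBC. The ratio of GBC over HBC was 0.68 with median-of-ratios scaling, which is under 2-fold, and 2.15 with 1 conversion factor per gene. That of mOSN over HBC was -0.61 with 1 conversion factor per gene, also under 2-fold. Hist1h1e, which encodes H1.4, had 0.888 FPKM in mOSN, against 5.21 in GBC, with 0.408 in HBC. Hist1h1d, which encodes H1.3, had 0.257 FPKM in mOSN, against 3.02 in GBC, with 0.226 in HBC. The other H1 genes, Hist1h1a, Hist1h1b and the testis gene Hist1h1t, stayed below 1 FPKM in every library.

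The Hist1 cluster summed to 45.9 FPKM in HBC, then 274 in GBC and 77.4 in mOSN. Of its 54 genes, 34 were lower in mOSN than in GBC by 2-fold or more, and none was higher by that much. Its highest H2B gene was Hist1h2bc, with 20.5 FPKM in mOSN (18.6 to 22.5), against 23.8 in GBC (22.3 to 25.4), with 9.64 in HBC (8.44 to 10.8). The mOSN and GBC intervals overlap slightly, and the log2 ratio was -0.21 for mOSN over GBC and 1.22 for GBC over HBC. This second ratio was 0.76 with median-of-ratios scaling and 1.95 with 1 conversion factor per gene. Its neighbour Hist1h2ac, an H2A gene 239 bases away, had 4.88 FPKM in mOSN, against 3.58 in GBC, with 0.140 in HBC. Hist1h2ac and Hist1h2be were the members of this cluster highest in mOSN, and Hist1h2be had 1.44 FPKM in mOSN, against 1.28 in GBC, with 0.0475 in HBC. The row of Hist1h2be shares 497 bases with that of Hist1h1e.

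The other 13 Hist1 H2B genes looked alike. They had 0 to 0.0553 FPKM in HBC, 1.46 to 9.17 in GBC (median 6.87) and 0.212 to 2.80 in mOSN (median 1.69). No value in GBC lay within the range of HBC, and every one of the 13 was lower in mOSN than in GBC, with log2 ratios between -2.05 and -1.02. Hist1h2bk had 2.75 FPKM in mOSN, against 9.17 in GBC, with 0.000969 in HBC. Hist1h2bf, the lowest in ratio, had 0.966 FPKM in mOSN, against 7.14 in GBC, with 0.00295 in HBC. Hist1h2ba, known as the testis H2B gene, had 2.25 FPKM in mOSN, against 6.55 in GBC, with 0.0464 in HBC. Its sequence-related copies could lend it reads, which was not tested. Its neighbour Hist1h2aa, the matching testis H2A gene, had 0.0639 FPKM in GBC and was near 0 in the other libraries.

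The H2A genes of the Hist1 cluster had lower levels than these H2B genes in mOSN and GBC but not in HBC, by their medians. The 10 listed above 0 apart from Hist1h2ac had 0 to 1.21 FPKM in HBC (median 0.527, against 0.000969 for the 13 H2B genes), 0.0639 to 4.78 in GBC (median 3.05) and 0.0000996 to 1.48 in mOSN (median 0.938). The highest in GBC was Hist1h2ah, with 1.48 FPKM in mOSN, against 4.78 in GBC, with 0.952 in HBC. The H4 genes of the cluster (11 genes) had 0.246 to 10.9 FPKM in GBC and 0 to 1.86 in mOSN. Hist1h4n had 0.368 FPKM in mOSN (0 to 0.778), against 10.9 in GBC, with 4.46 in HBC (3.01 to 5.91). It was with Hist1h1c the only member at least 2-fold lower in mOSN than in HBC, and 1 of its rows shares 312 bases with that of Hist1h4m. Hist1h4j had 0.833 FPKM in mOSN, against 9.84 in GBC, with 0.00965 in HBC, and Hist1h4i 1.35, 9.01 and 0.682 FPKM in the same libraries. The 9 H3 genes of the cluster were all listed at 0 in HBC. They had 0.0574 to 0.469 FPKM in mOSN and 0.456 to 2.35 in GBC, so each was lower in mOSN, and the range in mOSN reached just above the lowest value in GBC.

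**Figure D4:**
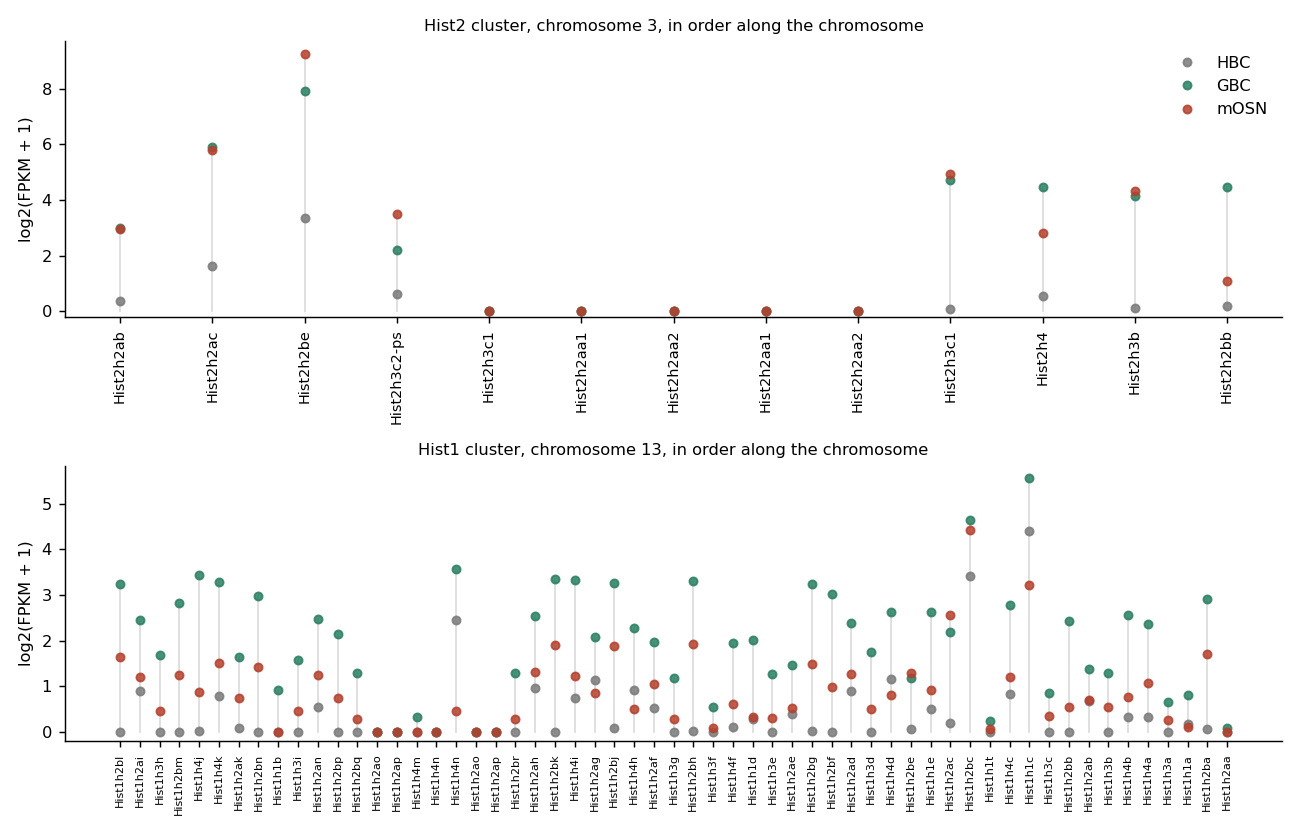
FPKM on a log2(FPKM + 1) scale in HBC, GBC and mOSN of the Hist2 (upper panel) and Hist1 (lower panel) genes in their order along the chromosome, with 1 position per deposited row, so a gene with 2 rows stands there 2 times. Positions are evenly spaced, and distances are not drawn. As deposited, GBC is highest along nearly all of the Hist1 cluster, and mOSN is near or above GBC in the stretch of the Hist2 cluster around Hist2h2be (604 FPKM in mOSN, 242 in GBC).

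Along chromosome 13 the Hist1 genes fell into 5 blocks when gaps over 50000 bases split them. Their sums in mOSN and GBC were 13.4 and 73.8 FPKM, 9.07 and 34.7, 13.7 and 60.4, 38.9 and 98.2, and 2.25 and 6.62. All 5 blocks were lower in mOSN, with median log2 ratios of -1.24, -1.37, -1.29, -0.70 and -0.65. The fourth block holds Hist1h1c and Hist1h2bc, and so the highest single genes of the cluster. Many H2A and H2B genes lie head to head and share the bases between them. In the 11 neighbouring pairs with gaps of 172 to 334 bases, H2B was above H2A in 8 pairs in mOSN, against 9 in GBC, with 3 in HBC. For Hist2h2be and Hist2h2ac the log2 ratio of H2B over H2A was 3.44 in mOSN, against 2.02 in GBC, with 1.71 in HBC.

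Genes that make or handle histone message were compared by lists. The 9 genes of histone gene transcription summed to 17.3 FPKM in HBC, then 29.5 in GBC and 21.1 in mOSN. Of these, Npat, the coactivator that histone genes need in S phase, had 4.34 FPKM in mOSN, against 3.63 in GBC, with 1.28 in HBC. At least 2-fold higher in GBC than in HBC were 3 of the 9, with 1 lower, and 1 was lower in mOSN than in GBC (Cdk2, a kinase that acts on the Npat protein, at 0.154 FPKM in mOSN and 1.51 in GBC). The 11 genes of histone message 3′ end processing summed to 96.6, 192 and 159 FPKM in HBC, GBC and mOSN. Of them, 5 were at least 2-fold higher in GBC than in HBC, and 1 was lower in mOSN than in GBC (Lsm10, a part of the U7 snRNP, at 3.14 FPKM in mOSN and 8.03 in GBC). Slbp, the stem-loop binding protein, had 15.2 FPKM in mOSN, against 9.29 in GBC, with 12.2 in HBC, so it was not highest where most histone members were. Of the 7 genes of histone message decay, 1 was at least 2-fold higher in GBC than in HBC and none differed by 2-fold between mOSN and GBC.

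Genes of S phase and mitosis had similar sums in GBC and HBC, unlike the histone members. The 22 genes of that list summed to 90.9 FPKM in HBC, then 101.8 in GBC and 51.9 in mOSN. Much of the mOSN sum came from Pcna, with 27.2 FPKM in mOSN, against 18.0 in GBC, with 18.6 in HBC. The histone members summed to 62.6, 831 and 845 FPKM in HBC, GBC and mOSN, and without Hist2h2be to 53.4, 589 and 241. In GBC against HBC, 6 of the 22 were higher and 3 lower by 2-fold or more (median log2 -0.04). At least 2-fold lower in mOSN than in GBC were 10 of 22 and none was higher (median -0.89). Mki67, a marker of dividing cells, had 0.240 FPKM in mOSN, against 6.54 in GBC, with 4.27 in HBC. Top2a, a topoisomerase of dividing cells, had 0.403 FPKM in mOSN, against 9.57 in GBC, with 3.44 in HBC. Mcm6, a subunit of the replicative helicase, had 0.933 FPKM in mOSN, against 6.64 in GBC, with 8.49 in HBC.

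Histone chaperones and histones made outside S phase were set beside the clustered genes. Of 16 chaperones, 6 were at least 2-fold higher in GBC than in HBC and 1 was lower, and 2 were lower in mOSN than in GBC. Nasp, a chaperone of H1 and H3 with H4, had 7.16 FPKM in mOSN, against 21.5 in GBC, with 13.3 in HBC, and Asf1b was the other. The 11 replication-independent histone genes, which give polyadenylated messages, summed to 510 FPKM in HBC, then 907 in GBC and 743 in mOSN. In GBC against HBC, 6 of the 11 were at least 2-fold higher and none was lower (median 1.35). At least 2-fold lower in mOSN than in GBC were 4 and none was higher (median -0.66). H1f0, the linker histone of resting and differentiated cells, had 18.3 FPKM in mOSN, against 74.6 in GBC, with 20.7 in HBC, so its level like that of Hist1h1c was highest in GBC. H1fx, another linker histone, had 6.05, 23.9 and 0.571 FPKM in the same libraries. H2afy, which encodes macroH2A, had 143 FPKM in mOSN, against 76.5 in GBC, with 43.2 in HBC, and H2afz, which encodes H2A.Z, 106, 85.4 and 22.5 FPKM. H3f3b and H3f3a, which both encode H3.3, differed, with H3f3b at 360 FPKM in mOSN, against 468 in GBC, with 183 in HBC and H3f3a at 69.3, 110 and 212 FPKM.

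**Figure D5:**
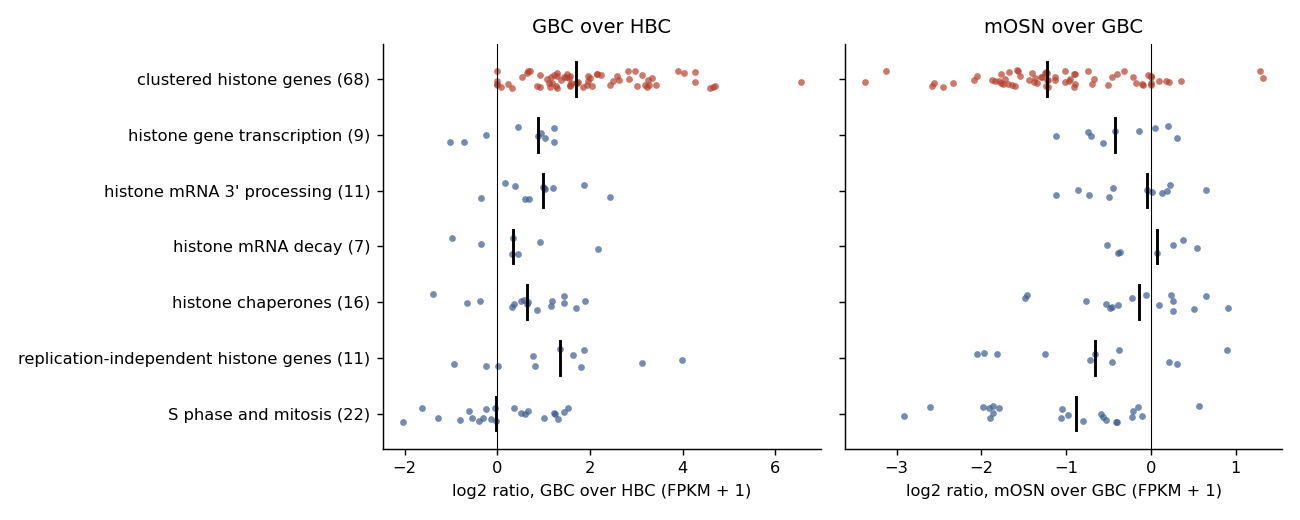
Log2 ratios from FPKM + 1 of the genes in each list for the comparisons of GBC over HBC and mOSN over GBC, with 1 point per gene and the median of the list. The clustered histone genes have medians of 1.70 and -1.22, and the S phase and mitosis genes -0.04 and -0.89.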

How the data were processed

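Poly-A RNA was sequenced from 1 library each of HBC, GBC and mOSN, grouped by title, after 16 cycles of PCR per the labels' protocols. For each library the authors deposited FPKM per gene with an interval and a status column. Bowtie, TopHat, Cufflinks and build mm9 stand in the submitters' processing notes, without versions. Annotation, strand and multi-read handling: not given in the sources used here. The 3 samples of 5-hydroxymethylcytosine and 3 of 5-methylcytosine were not analysed here.

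Rows of 1 symbol were added up (222 symbols, 6 of them members). Starts were raised by 1. Rows of status FAIL (8 in HBC, 19 in GBC, 30 in mOSN) or LOWDATA (247 in each library) kept their FPKM. Ratios were log2((FPKM + 1)/(FPKM + 1)). The added 1 FPKM makes differences of low genes look smaller. A 2-fold difference was a log2 ratio of 1 with no filter, and a 4-fold one a log2 ratio of 2 with at least 5 FPKM in the higher library. Fragments n were implied by an interval half-width of 2 times FPKM over the square root of n. Intervals do not cover differences between animals or library preparations. The library PCR had no molecular identifiers, so its reads are not independent and the intervals can be too narrow even for counting error. The alternative with 1 conversion factor per gene uses the same fragments per FPKM in all libraries, apart from 1 scaling factor per library. Members at 5 FPKM or more, past the 4-fold rule or among the 2 highest of a class were eligible to be named, and up to 4 genes per list. Members and lists were chosen with earlier results of these data known. RefSeq windows were matched by symbol or synonym, and motifs were searched on both strands. The 4-fold rule was tried on simulated libraries with known differences in genes of at least 5 FPKM, and the other counts were not tried in this way. Python 3.11.15, numpy 2.4.6, pandas 2.3.3 and matplotlib 3.10.9 were used.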

Additional observations from a re-analysis of the deposited data

How the results depend on the processing

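No paired analysis was possible because each population had 1 library, and no replicate could be left out. Of 204 summary values under 12 alternatives, 171 stayed within the limits set for them and 33 moved. A reversal was defined only for ratios called at 2-fold or more, not for counts, and none was seen. The log2 ratio of sums for mOSN over GBC, 0.02, was -0.35 with 1 common sum, -0.20 with 1 conversion factor per gene, and -0.07 under median-of-ratios scaling. Counting only members whose intervals do not overlap left each count as it was. In 2 of the 12, chosen after seeing the data, members listed at 0 everywhere or with under 30 implied fragments were left out, and no summary value moved. With a pseudocount of 0.1 FPKM the median log2 ratios were 3.68 (GBC over HBC), -1.82 (mOSN over GBC) and 1.69 (mOSN over HBC), 14 members were 4-fold lower in mOSN than in GBC and 44 were 2-fold higher in mOSN than in HBC. With a pseudocount of 5 FPKM, 23 members were 2-fold and 9 were 4-fold higher in GBC than in HBC (median 0.72). In mOSN over GBC, 1 was 2-fold higher, 11 were 2-fold and 2 were 4-fold lower (median -0.51). In mOSN over HBC, 9 were 2-fold and 5 were 4-fold higher and 0 were 2-fold lower. With libraries rescaled to 1 common sum, 47 were 4-fold higher in GBC than in HBC (median 3.16). In mOSN over GBC, 1 was 2-fold higher and 34 were 4-fold lower (median -2.04), and in mOSN over HBC 33 were 2-fold and 19 were 4-fold higher, 4 were 2-fold and 1 was 4-fold lower. This scaling raises all values against the fixed pseudocount and floor. With median-of-ratios scaling, 1 was 4-fold lower in mOSN than in HBC and the log2 ratio of sums was 3.16. It moved the median of the 13142 symbols with a mean of at least 1 FPKM to 0.14 from 0.52 for GBC over HBC and to 0.19 from 0.67 for mOSN over HBC, and 1 common sum moved it to -0.11 from 0.15 for mOSN over GBC. With 1 conversion factor per gene, 1 member was 2-fold higher in mOSN than in GBC and 1 was 2-fold lower in mOSN than in HBC. Over the 44 members with a mean of at least 1 FPKM the median for GBC over HBC was 2.46. Without Hist2h2be and Hist1h1c, 1 member was 2-fold higher in mOSN than in GBC and the log2 ratio of sums was -1.22 (0.02 with them). For mOSN over HBC 1 was 2-fold lower and that ratio was 2.80 (3.75 with them). Of 609 single gene values, 177 moved, and 32 of 74 called ratios were under 2-fold in at least 1 alternative. No called ratio changed sign. A changed pseudocount cannot turn the sign of a single gene ratio, and the settings on rows moved no single gene value. Only the settings that rescale values could thus have shown a reversal. The uncalled ratios of mOSN over GBC of Hist2h3b and Hist2h3c1 turned below 0 with 1 common sum and with 1 conversion factor per gene. The causes were not tested beyond what these settings construct.

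Most members in HBC rest on under 1 implied fragment, so a ratio to HBC says little about its size for them. Near-identical copies limit single genes of the Hist1 cluster, and poly-A selection limits all levels to the captured messages.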
